A study of Homo sapiens with 30 samples.

Results

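Cells carrying FOXP2 that lacks residues 264 to 272 (dhelix FOXP2) were compared with cells carrying the full protein (WT FOXP2), both without the drug CHIR99021 (CHIR). The comparison took the 5 dhelix and 5 WT libraries of that kind, 10 of the 30 RNA-seq libraries in the study, chosen by their labels alone. All cells were U2OS, a human osteosarcoma line, given 500 ng of either plasmid by lipofection for 48 hours. Both groups therefore carried a FOXP2 plasmid, and neither was an untreated control. The labels do not name the promoter of the plasmid, the FOXP2 isoform or any empty vector in mock-transfected cells. The title of the study names several sites at which β-catenin binds FOXP2, and this pair of groups asks what the deletion of 1 short stretch does to the transcripts of the cell. Levels are counts scaled to the size of each library (CPM). After ± stands the SD for a level and the standard error for a log2 fold change, which is always dhelix over WT with n = 5 libraries per group. A gene is called higher or lower where the Benjamini-Hochberg adjusted p of edgeR's quasi-likelihood test was under 0.05.

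FOXP2 is a forkhead transcription factor best known for its part in speech and language development. It acts mostly as a repressor, binds DNA through its forkhead domain and forms dimers with itself and with the related FOXP1 and FOXP4. β-catenin is the effector of canonical Wnt signalling: a destruction complex that holds AXIN, APC and glycogen synthase kinase 3 keeps it low, and when it accumulates it works as a coactivator for the TCF/LEF factors. CHIR blocks that kinase and so mimics a Wnt signal.

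The deleted stretch is short, and it is printed here because it is the only designed difference between the constructs. On the first coding transcript of FOXP2 in GENCODE v29 (GRCh38, plus strand), residues 264 to 272 are 9 codons in exon 7 of 17, at chr7:114642424-114642450. This numbering assumes that isoform, and the codons of the plasmid itself may differ. Capitals mark the 27 deleted bases, with 30 bases on either side.
FOXP2 residues 264 to 272: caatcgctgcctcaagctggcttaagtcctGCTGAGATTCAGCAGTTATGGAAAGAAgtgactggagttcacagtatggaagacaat

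FOXP2 transcript was abundant in both groups and lower with the deleted form. It was at 5906, 7806, 6863, 7769 and 7039 CPM in the WT libraries and at 4655, 6359, 5301, 4974 and 5308 CPM in the dhelix libraries, against 0.898 ± 0.284 CPM in mock. The highest dhelix library (replicate 2) lay above the lowest WT library (replicate 1), so the groups overlapped. Mean levels were 7076 ± 779 CPM with WT and 5319 ± 640.5 CPM with dhelix FOXP2, a ratio of 0.752 (two-sided exact permutation p = 0.0159, where 5 against 5 cannot go below 0.00794). FOXP2 took 0.566% to 0.741% of all counts in the WT libraries and 0.456% to 0.625% in the dhelix libraries. These counts join plasmid and endogenous transcripts, and protein was not measured. Every difference below lies between groups that differ both in the deleted residues and in the amount of FOXP2 RNA, and this design cannot tell those apart.

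**Figure D1:**
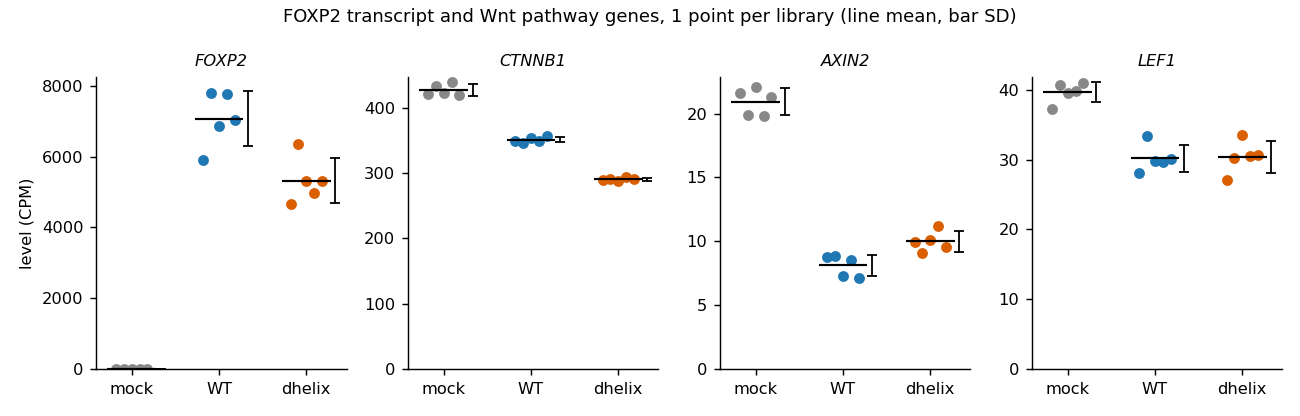
Level in CPM (y axis, from 0) of FOXP2, CTNNB1, AXIN2 and LEF1 in the mock, WT FOXP2 and dhelix FOXP2 libraries without CHIR. Each point is 1 library, the line is the mean and the bar the SD (n = 5); CTNNB1 is at 346 to 357 CPM in WT and 288 to 293 CPM in dhelix libraries, while LEF1 overlaps between them.

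Total counts were 16858604 to 28132145 in the WT libraries and 22096650 to 29466652 in the dhelix libraries. Per the labels the 5 libraries of each group are biological replicates; separate cultures are not described, so the p-values measure the spread between these samples. On a principal component analysis of the 10 libraries, component 1 (40.9% of the variance) separated dhelix from WT. Dhelix replicate 5 stood apart in untailed small RNAs: RN7SK, which restrains transcription elongation, was at 59.0 CPM there and at 2.30 to 3.61 CPM in the other dhelix libraries, and RMRP at 33.4 CPM against 0.227 to 1.02 CPM. WT replicate 1 had the lowest FOXP2 level of its group. The labels call U2OS an epithelial osteosarcoma cell. The 15 mesenchymal markers summed to 5330 to 5493 CPM with WT and 4944 to 5144 CPM with dhelix FOXP2. Vimentin, the most abundant of them, was at 2590 and 2070 CPM on average. Of 13 mesenchymal markers tested, 4 were higher and 4 lower, with a median log2 fold change of 0.069 (61.5% called against 35.6% of all genes tested). The 16 epithelial markers summed to 646.5 to 682 CPM with WT and 653 to 699.5 CPM with dhelix FOXP2, mostly the keratins KRT18 and KRT8, while GRHL2 had no counts in these 10 libraries and CDH1, which encodes E-cadherin, was at 1.31 and 1.34 CPM. In bulk RNA, fewer cells that express a gene and less RNA per cell cannot be told apart.

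The deletion went with many small differences and few large ones. Of 18485 genes tested, 6588 (35.6%) passed the threshold, 3123 (16.9%) higher and 3465 (18.7%) lower with dhelix FOXP2. In 5532 genes (29.9%) the 5 dhelix libraries did not overlap the 5 WT libraries. The median size among called genes was 0.27 on the log2 scale, and 3123 called genes differed by less than 1.2-fold. A test against a 1.5-fold change left 260 genes (1.41%), with 193 higher (1.04%) and 67 lower (0.362%). Larger differences thus leaned towards higher levels, 345 called genes being at least 2-fold higher and 129 at least 2-fold lower. Of the genes past the 1.5-fold test, 72 higher and 19 lower ones had a mean under 1 CPM. With the FOXP2 level of each library as a covariate, on the 20 libraries with a FOXP2 plasmid, 4437 genes passed the threshold and 159 the 1.5-fold test, 139 higher and 20 lower.

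**Figure D2:**
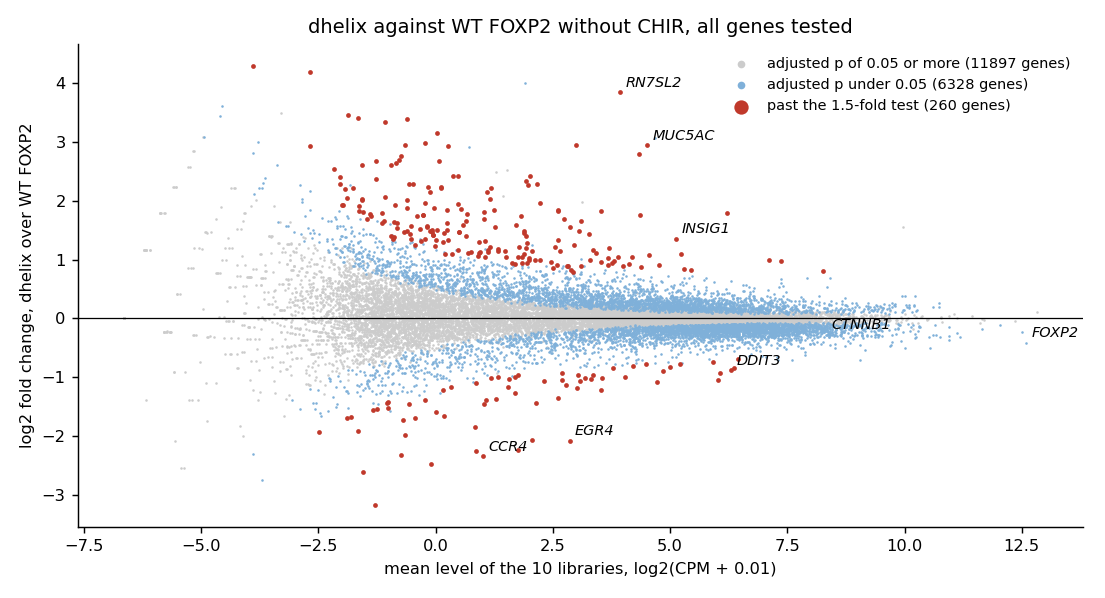
Log2 fold change of dhelix over WT FOXP2 (y axis) against the mean level of the 10 libraries, log2(CPM + 0.01) (x axis), for all 18485 genes tested. Grey points did not pass the threshold, blue points did, and the 260 red points passed the 1.5-fold test, most of them above the zero line.

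Among the genes with the largest positive differences were secretory and membrane genes. MUC5AC (ENSG00000215182), a gel-forming airway and stomach mucin, was at 3.75, 5.14, 5.38, 6.50 and 4.95 CPM with WT FOXP2 and at 34.6, 46.2, 41.8, 38.0 and 40.3 CPM with dhelix FOXP2. All dhelix libraries lay far above all WT libraries, and mock was at 0.0474 CPM. The difference was 2.95 ± 0.10 (adjusted p = 7.3e-22). Dhelix replicate 2, which held more FOXP2 transcript than WT replicate 1, had the highest MUC5AC level, and WT replicate 1 the lowest. These are single libraries, and this design cannot tell the amount of FOXP2 RNA from the deletion. MAL (ENSG00000172005), a raft protein of apical membrane transport, was at 4.06, 6.48, 4.88, 5.55 and 4.46 CPM with WT and 31.4, 38.6, 38.2, 32.5 and 37.0 CPM with dhelix FOXP2 (2.80 ± 0.09, adjusted p = 3.4e-23), again without overlap and with mock at 0.00979 CPM. With the FOXP2 level as a covariate, on the 20 libraries with a FOXP2 plasmid, with and without CHIR, these differences were 3.24 ± 0.16 for MUC5AC and 3.05 ± 0.11 for MAL.

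Other strongly higher genes were at low levels. The long noncoding RNA LINC00659 (ENSG00000228705) was at 1.31 to 2.49 CPM with WT and 12.4 to 15.2 CPM with dhelix FOXP2 (2.95 ± 0.13, adjusted p = 1.5e-19). AGXT, which encodes the peroxisomal enzyme alanine-glyoxylate aminotransferase, was at 0.861 to 1.38 and 5.32 to 6.96 CPM (2.33 ± 0.13, adjusted p = 4.9e-15) and had no counts in mock. NEU4, a sialidase, was at 0.900 to 1.6 CPM with WT, 6.39 to 7.47 CPM with dhelix FOXP2 and 0.879 CPM on average in mock. SYK, a kinase of immune receptor signalling, was at 0.250 to 0.599 CPM with WT, 1.89 to 2.70 CPM with dhelix FOXP2 and 0.682 CPM in mock. LRRC32, which anchors latent TGF-β at the cell surface, was at 0.129 to 0.676 CPM with WT, 2.12 to 2.61 CPM with dhelix FOXP2 and 0.917 CPM in mock. No dhelix library of these 3 genes overlapped a WT library, and their differences were all 2.42 on the log2 scale, with adjusted p of 4.4e-15, 1.2e-10 and 4.3e-10. C19orf77 followed at 2.28 ± 0.12 (adjusted p = 8.6e-17).

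The signal recognition particle RNAs RN7SL1, RN7SL2 and RN7SL3 also met the rule for the largest differences. RN7SL1 was at 4.09 to 7.23 CPM in the WT libraries and at 11.3, 20.2, 9.58, 14.6 and 173 CPM in the dhelix libraries, the last being replicate 5. Without that library the difference fell from 3.06 ± 0.86 to 1.40 (adjusted p = 0.12) for RN7SL1 and from 2.92 to 1.16 (adjusted p = 0.28) for RN7SL3. That of RN7SL2 went from 3.84 ± 0.85 to 2.82 (adjusted p = 0.0049). Near-identical copies share reads in this family.

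The lower genes with the largest differences were also at low levels. EGR4 (ENSG00000135625), an immediate early transcription factor, was at 9.59, 12.7, 12.4, 13.6 and 10.3 CPM with WT FOXP2 and at 1.90, 4.06, 2.67, 2.57 and 2.55 CPM with dhelix FOXP2. The groups did not overlap, mock was at 0.0475 CPM, and the difference was -2.08 ± 0.13 (adjusted p = 4.6e-14). It was -1.47 with the FOXP2 level as a covariate, still past the threshold. CCR4 (ENSG00000183813), a chemokine receptor of T helper cells, was at 3.04 to 3.64 CPM with WT and 0.530 to 0.789 CPM with dhelix FOXP2, against 0.0279 CPM in mock (-2.34 ± 0.17, adjusted p = 4.5e-13). DNAH3, a heavy chain of axonemal dynein, was at 4.73 to 6.58 CPM with WT and 0.946 to 1.33 CPM with dhelix FOXP2 (-2.24 ± 0.13, adjusted p = 7.7e-16).

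IRGM, an autophagy-linked GTPase, was at 5.72 to 7.27 CPM with WT and 1.55 to 1.66 CPM with dhelix FOXP2 (-2.07 ± 0.12, adjusted p = 2.7e-16). SULT1B1, a sulfotransferase that acts on thyroid hormones, was at 7.88 to 9.83 and 2.88 to 3.90 CPM (-1.35 ± 0.11, adjusted p = 1.9e-12). CHRNA9, a nicotinic acetylcholine receptor subunit, was lower by a similar amount (-1.45 ± 0.11), as was DHRS9, a retinol dehydrogenase (-1.39 ± 0.14). IL1RL1, the receptor for interleukin 33, had few counts, at 1.05 to 1.81 and 0.467 to 0.771 CPM (-1.27 ± 0.25, adjusted p = 1.3e-04). In none of these genes did a dhelix library reach a WT library.

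**Figure D3:**
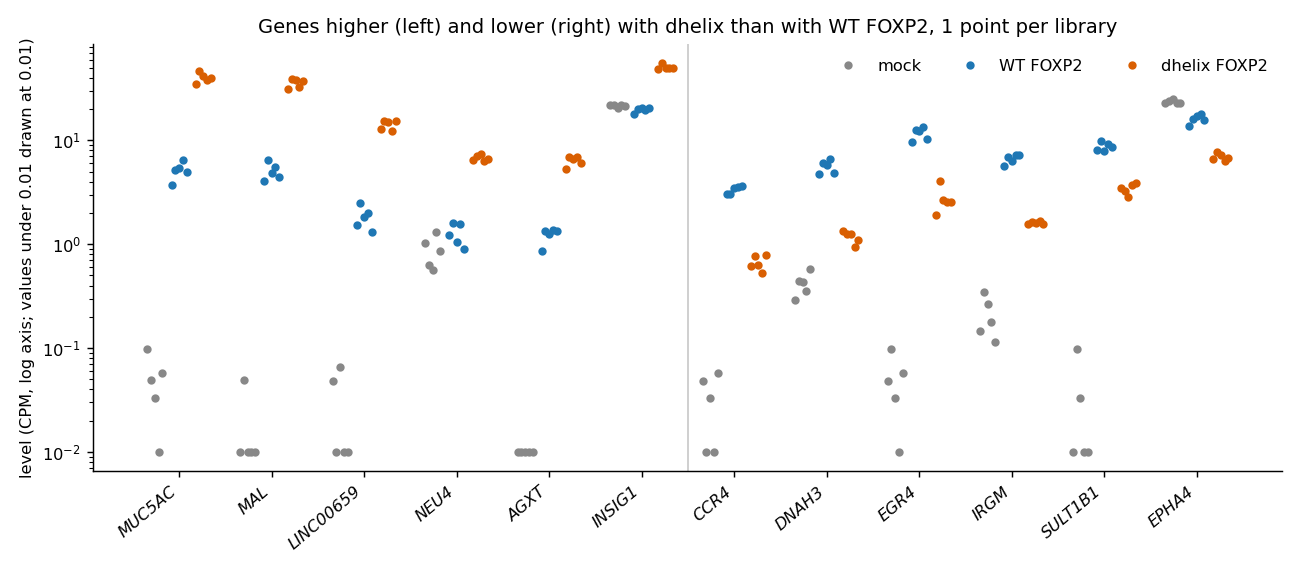
Level in CPM (y axis, log scale, values under 0.01 drawn at 0.01) of 6 genes higher and 6 genes lower with dhelix than with WT FOXP2; each point is 1 of 5 libraries of mock (grey), WT (blue) or dhelix (orange). MUC5AC is at 3.75 to 6.50 CPM with WT and 34.6 to 46.2 CPM with dhelix FOXP2; EGR4 is at 9.59 to 13.6 and 1.90 to 4.06 CPM.

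The β-catenin gene CTNNB1 (ENSG00000168036) was lower with dhelix FOXP2. It was at 349, 346, 353, 349 and 357 CPM with WT and 289, 290, 288, 293 and 290 CPM with dhelix FOXP2, both under the 427 CPM of mock. The spread within each group was small beside the gap, and the difference was -0.27 ± 0.03 (adjusted p = 7.4e-10). AXIN2 (ENSG00000168646), a feedback inhibitor of the pathway and a usual readout of β-catenin activity, was at 8.73, 8.88, 7.25, 8.56 and 7.12 CPM with WT and 9.95, 9.07, 10.1, 11.2 and 9.57 CPM with dhelix FOXP2, and 19.8 to 22.1 CPM in mock. Its groups did not overlap, but the difference of 0.30 ± 0.12 passed narrowly (adjusted p = 0.046). With the FOXP2 level as a covariate the AXIN2 difference was not smaller, at 0.44 ± 0.23, but its error was wider and it no longer passed (adjusted p = 0.19). Nor did it pass when any 1 of 6 libraries was left out, namely WT replicate 3, 4 or 5 or dhelix replicate 1, 3 or 4. Those values ran from 0.26 (adjusted p = 0.13, without WT replicate 5) to 0.33 (adjusted p = 0.054, without WT replicate 4). The TCF/LEF family member LEF1 (ENSG00000138795) did not pass (0.01 ± 0.06, adjusted p = 0.95), at 28.1 to 33.4 CPM with WT and 27.1 to 33.5 CPM with dhelix FOXP2.

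Components of the β-catenin machinery that passed the threshold were nearly all lower. Of 29 tested genes for β-catenin complexes, the destruction complex and transcription cofactors, 16 were lower and 1 was higher. The called share was 58.6% against 35.6% of all genes tested, and the median -0.14 against 0.0025. The acetyltransferase gene EP300 was at 205 to 220 CPM with WT and 165 to 172 CPM with dhelix FOXP2 (-0.34 ± 0.03), and the TCF gene TCF7L2 at 19.1 to 23.7 and 16.5 to 17.9 CPM (-0.32 ± 0.05). TLE3, a Groucho corepressor, was at -0.32 ± 0.05, and its paralog TLE2 was the 1 higher member (0.33 ± 0.09). Of 28 Wnt feedback and target genes 5 were higher and 5 lower (median 0.11), a called share of 35.7% that is close to the 35.6% of all genes tested. NOTUM, a secreted enzyme that inactivates Wnt ligands, went from 2.32 to 3.44 CPM with WT to 5.15 to 6.08 CPM with dhelix FOXP2 (0.99 ± 0.13, adjusted p = 1.1e-07), and the receptor gene EPHB3 from 3.69 to 4.43 to 5.43 to 6.60 CPM (0.57 ± 0.10). CD44, a hyaluronan receptor, was lower (-0.45 ± 0.03).

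Of 38 Wnt ligands, receptors and secreted modulators, 12 were higher and 3 lower (median 0.11). The called share was 39.5% against 35.6% of all genes tested, of which 16.9% were higher and 18.7% lower, so the calls in this list leaned towards higher levels. Among members with a mean of at least 1 CPM, the ligand genes WNT7A (1.31 ± 0.19) and WNT7B (1.22 ± 0.12) had the largest differences, WNT7B at 2.94 to 4.38 CPM with WT and 7.52 to 9.45 CPM with dhelix FOXP2. The coreceptor gene LRP5 was at 15.3 to 18.4 and 21.0 to 25.9 CPM (0.54 ± 0.08). With the FOXP2 level as a covariate, 7 members of this list were higher and 1 was lower, and the lower count was 1 or 2 when any 1 library was left out. Of the Wnt targets, 2 were then higher.

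Of 23 genes for FOXP proteins and described partners of FOXP2, 13 were lower and 0 higher (median -0.18). The called share was 56.5% against 35.6% of all genes. At an unadjusted p under 0.05 edgeR gave 1 member higher, and the DESeq2 Wald test called 0 higher. Without a filter on low counts 2 were called higher, as they were when the fit held only the compared WT and dhelix libraries. FOXP1, the closest paralog and a dimer partner, was at 8.25 to 10.1 CPM with WT and 6.24 to 7.57 CPM with dhelix FOXP2, both far under the mock mean of 53.1 CPM (-0.40 ± 0.08, adjusted p = 2.8e-04). NR2F1, an orphan nuclear receptor (-0.62 ± 0.12), and NFATC2, a calcium-regulated factor (-0.50 ± 0.07), were lower too. With the FOXP2 level as a covariate 8 members were lower. Described FOXP2 target genes were lower in 9 and higher in 3 of 23 (52.2% called, median -0.12). NOS1, a nitric oxide synthase, was at 53 to 58.9 and 39.8 to 42.7 CPM (-0.42 ± 0.05), and the ephrin gene EFNB1 at 26.3 to 28.4 and 32.3 to 35.9 CPM (0.29 ± 0.07).

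Mucins and secretory barrier genes had a median of 0.63 over 14 tested genes, with 9 higher and 1 lower (71.4% called against 35.6% of all genes). MLC1, a membrane protein of astrocyte end-feet, was at 26.9, 35.6, 35, 37.6 and 30.6 CPM with WT and 102, 125, 123, 113 and 110 CPM with dhelix FOXP2 (1.79 ± 0.06, adjusted p = 3.4e-22). The groups were well apart, and mock was at 0.580 CPM. MUC5B, named after its values were seen because it is the other gel-forming airway mucin of the list, was at 0.0784 and 0.845 CPM on average (3.34 ± 0.34). MUC13, a membrane mucin, was the 1 lower member (-0.74 ± 0.20). MUC5AC and MAL were known to differ in these data when the list was drawn up, and the list also holds MLC1, which is not a mucin. MUC5AC, MAL and MLC1 are among its 4 members past the 1.5-fold test. The count and median of this list are therefore not independent of the earlier results.

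Cytokine, chemokine and NF-κB response genes had a median of -0.31 over 24 tested genes, with 15 lower and 1 higher (66.7% called against 35.6% of all genes). IL8 (ENSG00000169429), which attracts neutrophils, was at 82.1, 88.9, 80.4, 98.5 and 87.6 CPM with WT and at 43.9, 53, 44.5, 41.6 and 46.1 CPM with dhelix FOXP2. Every dhelix library was lower than every WT library, mock was at 0.373 CPM, and the difference was -0.94 ± 0.07 (adjusted p = 9.7e-14). IL1A, an alarmin cytokine, was at 9.47 to 13.1 and 4.58 to 5.53 CPM (-1.18 ± 0.11). The adhesion gene ICAM1 (-0.87 ± 0.18), the NF-κB inhibitor gene TNFAIP3 (-0.75 ± 0.05) and the adaptor gene TRAF1 (-0.60 ± 0.05) were lower too.

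Immediate early and MAPK feedback genes were lower in 22 and higher in 2 of 32 (median -0.22), 75% called against 35.6% of all genes. EGR1, a growth factor-induced zinc finger protein, was at 544 to 750 CPM with WT, 365 to 438 CPM with dhelix FOXP2 and 99.4 CPM in mock (-0.71 ± 0.07). FOSL1, an AP-1 subunit, was at 263 to 298 and 182 to 201 CPM (-0.57 ± 0.06). With the FOXP2 level as a covariate 15 of these genes were lower. ER stress and ATF4 genes were mixed, 8 higher and 11 lower of 31 (61.3% called), with a median of -0.04. The lower members with the largest differences were these: DDIT3, which encodes the factor CHOP, was at 89.9 to 107 CPM with WT and 52.5 to 58.1 CPM with dhelix FOXP2 (-0.88 ± 0.04, adjusted p = 1.8e-17), the phosphatase subunit PPP1R15A was at -0.71 ± 0.05, ATF3 at -0.54 ± 0.04 and the cystine transporter SLC7A11 at -0.51 ± 0.07. Heat shock genes were lower in 6 and higher in 2 of 16 (50% called). HSPA8, the constitutive chaperone HSC70, was at 3390 to 3490 and 2970 to 3060 CPM (-0.19 ± 0.03).

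Extracellular matrix genes were higher in 15 and lower in 9 of 41 (median 0.10), 58.5% called against 35.6% of all genes. The basement membrane gene NID1 was at 215 to 229 CPM with WT and 376 to 395 CPM with dhelix FOXP2 (0.81 ± 0.04, adjusted p = 4.5e-19), and the collagen chain genes COL6A1 (0.69 ± 0.08) and COL5A1 (0.65 ± 0.09) were higher as well. THBS1, the matricellular protein thrombospondin, was at 1070 to 1120 and 804 to 859 CPM (-0.39 ± 0.03). Among 29 matrix proteases and inhibitors, 7 were higher and 11 lower (62.1% called). ADAMTS4, an aggrecan-cleaving protease, was at 0.516 to 1.23 and 2.98 to 4.13 CPM (2.03 ± 0.17, adjusted p = 8.5e-12), the inhibitor TIMP3 was higher (0.56 ± 0.05), and the stromelysin gene MMP3 was at 150 to 179 and 98.4 to 109 CPM (-0.65 ± 0.06).

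Of 30 TGF-β, SMAD and YAP target genes, 7 were higher and 13 lower (median -0.11), 66.7% called against 35.6% of all genes. The inhibitor of bHLH factors ID4 was higher (0.97 ± 0.12), while CTGF was at 652 to 695 and 442 to 500 CPM (-0.54 ± 0.05) and the receptor kinase gene AXL at 960 to 989 and 685 to 726 CPM (-0.45 ± 0.05). Osteoblast lineage genes were lower in 5 and higher in 3 of 12 (66.7% called). ALPL, bone alkaline phosphatase, was at 19.4 to 21.7 and 10.7 to 13.8 CPM (-0.68 ± 0.10), and SPARC, osteonectin, was higher (0.39 ± 0.04). Axon guidance genes were higher in 12 and lower in 11 of 46 (50% called). The Eph receptor gene EPHA4 was at 13.8 to 17.9 and 6.28 to 7.67 CPM (-1.22 ± 0.08, adjusted p = 6.6e-15). The semaphorin SEMA3F was at 30.1 to 33.1 and 53.1 to 57.4 CPM (0.82 ± 0.06). Neuronal genes were higher in 6 and lower in 7 of 32, 40.6% called against 35.6% of all genes, with SYP, a synaptic vesicle protein, at 53.5 to 62.7 and 80.9 to 89.4 CPM (0.50 ± 0.06).

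Circadian clock genes were lower in 11 and higher in 1 of 19 (median -0.17), 63.2% called against 35.6% of all genes. NR1D1, the nuclear receptor REV-ERBα that represses the clock activators, was at 76.6, 89.2, 90.4, 90.4 and 88.5 CPM with WT and 42.6, 42.2, 43.5, 41.7 and 40.5 CPM with dhelix FOXP2. Its groups were far apart, and mock was at 22.6 CPM (-1.05 ± 0.06, adjusted p = 1.5e-15). The clock repressor gene PER1 was at 57.0 to 67.2 and 42.9 to 46.7 CPM (-0.51 ± 0.07). Sterol and fatty acid synthesis genes were higher in 9 and lower in 7 of 29 (55.2% called). INSIG1, which retains the sterol sensor SCAP in the endoplasmic reticulum, was at 18.1, 20, 20.3, 19.4 and 20.5 CPM with WT and 48.2, 55.1, 50, 49.4 and 49.4 CPM with dhelix FOXP2. The groups did not overlap, mock was at 21.5 CPM, and the difference was 1.35 ± 0.06 (adjusted p = 3.8e-20). The squalene synthase gene FDFT1 was higher (0.31 ± 0.03).

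Ribosomal protein genes were higher in 62 and lower in 2 of 83 (77.1% called against 35.6% of all genes), with a median of 0.17. RPL35 had the largest positive difference, at 219 to 282 and 315 to 335 CPM (0.38 ± 0.05). In 58 members every dhelix library was higher than every WT library, as in 2489 of all 18485 genes tested. The next lists are given beside the shares over all genes (35.6% called, 16.9% higher, 18.7% lower), and some of their counts moved with single libraries. Of 37 mitotic genes 10 were higher and 4 lower (37.8% called). Of these the lower count was 1 to 3 when any 1 library was left out, and 1 without dhelix replicate 5. Named members were the centromere histone CENPA at 44.3 to 47.5 and 59.6 to 63.4 CPM (0.42 ± 0.04) and the kinase CDK1 at 0.30 ± 0.06. Of 44 DNA replication genes 8 were higher and 4 lower (27.3% called), the lower count being 2 to 6 when any 1 library was left out and the higher count 4 with the FOXP2 covariate and 15 with the GC trend removed. Named members were the sliding clamp PCNA at 0.29 ± 0.04 and the ribonucleotide reductase subunit RRM2 at -0.32 ± 0.04. Histone genes were lower in 7 and higher in 3 of 28 (35.7% called). Among members with a mean of at least 1 CPM the largest differences were those of HIST1H4E (-1.0 ± 0.12) and HIST1H4H (-0.77 ± 0.05), and the family has near-identical copies. Interferon-stimulated genes were higher in 7 (3 with the FOXP2 covariate) and lower in 5 of 29 (41.4% called), with CMPK2, a mitochondrial nucleotide kinase, at 1.5 ± 0.22 and IFIT3, an antiviral RNA-binding protein, at -0.86 ± 0.14. Lysosome and autophagy genes were higher in 8 and lower in 7 of 34 (44.1% called), the cholesterol carrier NPC2 at 0.34 ± 0.05 and its partner NPC1 at -0.32 ± 0.03. Of 27 p53 targets 5 were higher and 6 lower (40.7% called), and of 29 hypoxia and glycolysis genes 9 and 5 (48.3%). Of 11 hedgehog genes 1 was higher, GLI1, and 1 lower, GLI3 (18.2%). GLI1 lost its call without WT replicate 4 or 5 or dhelix replicate 1 or 3, and GLI3 without WT replicate 1, 2, 3 or 5 or dhelix replicate 2, 4 or 5.

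**Figure D4:**
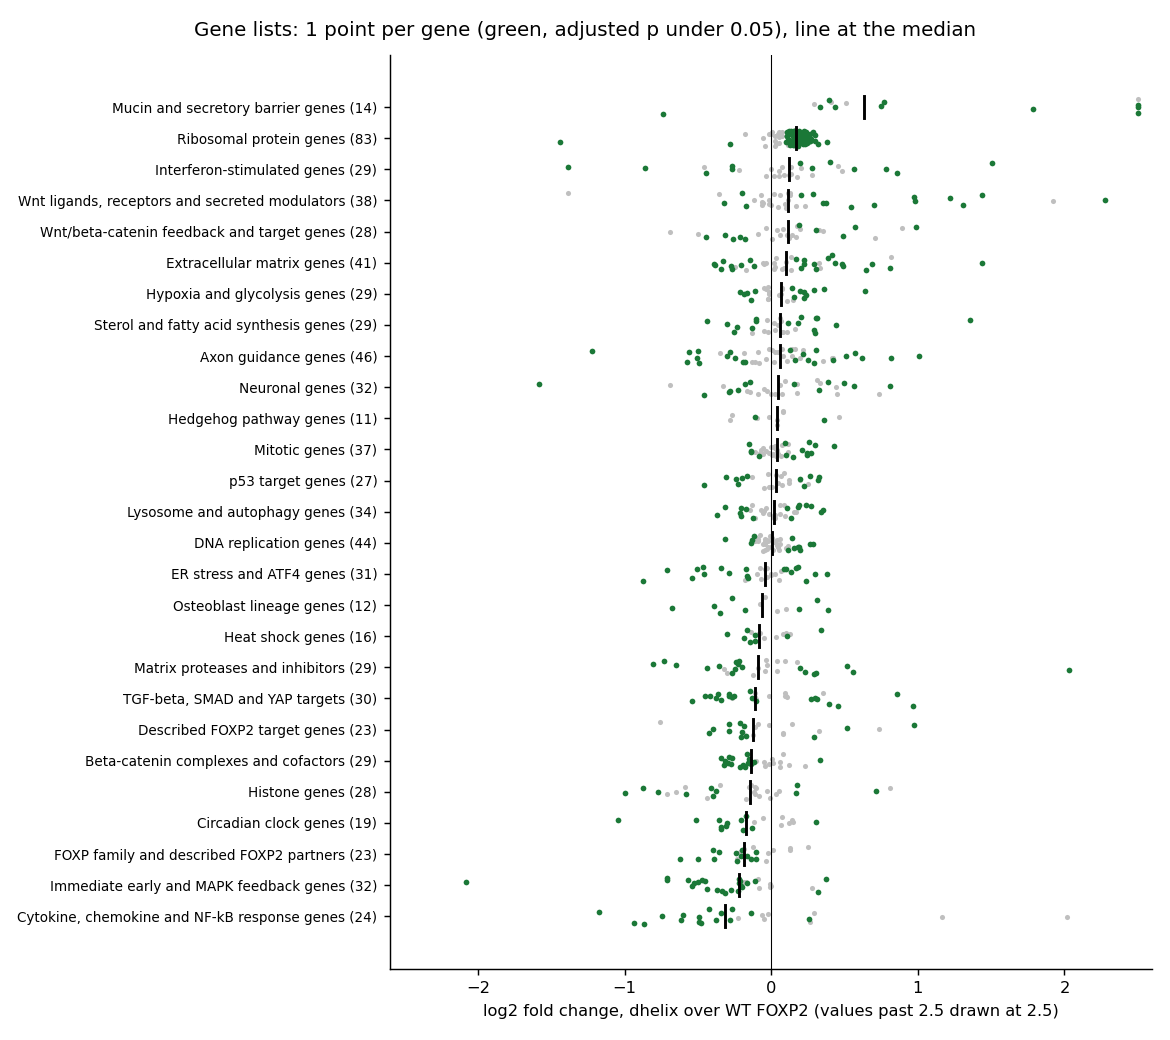
Log2 fold change of dhelix over WT FOXP2 (x axis, values past 2.5 drawn at 2.5) for the tested members of 27 gene lists (y axis, number of genes in brackets), green where the adjusted p was under 0.05 and grey otherwise. The black line is the median, from -0.31 for cytokine genes to 0.63 for mucin and secretory barrier genes among these 27 lists, which leave out the cell type markers.

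Markers of other cell types differed too, at low levels. The 15 blood markers summed to 25.6 to 29.1 CPM with WT, 32.7 to 36.8 CPM with dhelix FOXP2 and 7.27 to 9.24 CPM in mock. Of 5 tested, 3 were higher and 1 lower: CD3D, a T cell receptor chain, was at 1.63 to 2.77 and 5.15 to 5.85 CPM (1.39 ± 0.12), and the integrin genes ITGAX (0.73 ± 0.09) and ITGAM (-0.97 ± 0.08) went opposite ways. The pan-leukocyte gene PTPRC was at 0.102 and 0.133 CPM, and CD3E and HBB had no counts in the WT and dhelix libraries. The endothelial markers summed to 21.2 to 26.8 and 33.6 to 35.9 CPM, with VWF, the von Willebrand factor gene, at 1.41 to 2.58 and 6.29 to 8.37 CPM (1.96 ± 0.15) and the receptor gene TIE1 at 0.55 ± 0.08, while EMCN had no counts and KDR, the VEGF receptor gene, was at 0.200 and 0.238 CPM. Of 10 epithelial markers tested 4 were higher, among them CLDN4 (0.68 ± 0.11), EPCAM (0.45 ± 0.10) and KRT8 (0.30 ± 0.05), and 2 were lower, KRT7 and KRT18. The lower count was 1 without dhelix replicate 2, 4 or 5 or any 1 WT library. Of all genes tested 16.9% were higher and 18.7% lower.

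Base composition moved with the comparison. Over the 17940 tested genes with a value, the Pearson correlation across genes of the log2 fold change with the GC content of the longest transcript was 0.17 (genes are not independent). Cut into 5 groups by GC, the 3588 genes with the least GC had a median log2 fold change of -0.016 and the 3588 with the most 0.10. The group with the most GC held 88 of the higher and 5 of the lower genes past the 1.5-fold test, against 5 and 14 in the group with the least. With CHIR the medians of the same groups were 0.015 and 0.0069. Cut likewise by transcript length, the shortest genes had a median of 0.058 and the longest -0.054. With each library's trend on GC content removed, a step added after the data were seen, 257 genes passed the 1.5-fold test, 240 of them among the 260. AXIN2 then lost its call (adjusted p = 0.17). MUC5AC was at 2.88 and EGR4 at -2.20.

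The same pair of constructs was also compared in cells given CHIR at 5 µM from 72 hours before transfection, in 10 other libraries. FOXP2 levels were higher there and closer to each other, 15299 ± 983 CPM with WT and 13481 ± 917 CPM with dhelix FOXP2, a ratio of 0.881 (two-sided exact permutation p = 0.0159). A total of 5655 genes (30.6%) passed the threshold with CHIR, 3077 higher (16.6%) and 2578 lower (13.9%). The large differences kept their direction and were mostly smaller. Of the 193 genes higher past the 1.5-fold test without CHIR, 188 had the same sign with CHIR and 157 (81.3%) were called higher. Of the 67 lower genes, 66 had the same sign, 60 (89.6%) were called lower and 1, IL8, was called higher. These calls are 5.10% of the genes higher with CHIR and 2.33% of those lower with CHIR. Of the 260 genes, 240 had a smaller difference with CHIR. The median went from 1.5 to 0.77 among the higher and from -1.22 to -0.96 among the lower genes. These genes were picked for a large difference without CHIR, so a smaller one in other libraries is partly built in. Over all 18485 genes tested, 9802 had a smaller difference with CHIR. The Pearson correlation across these 260 genes was 0.86, and across all genes tested it was 0.485.

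MUC5AC had means of 53.1 CPM with WT and 151 CPM with dhelix FOXP2 in CHIR-treated cells, where its difference was 1.51 (adjusted p = 5.7e-17). The change from 2.95 was past the threshold of the interaction test (adjusted p = 1.1e-09). That test, which asks whether the difference between the constructs depends on CHIR, called 2627 genes (14.2%). CTNNB1 was among them: with CHIR it was at 265 and 260 CPM and did not pass (-0.03, adjusted p = 0.46; interaction adjusted p = 4.1e-05). FOXP1 was likewise lower only without CHIR by these calls, and the interaction passed (adjusted p = 0.0089). Some genes were called in opposite directions: IL8 was at 73.5 and 85.4 CPM with CHIR (0.21, adjusted p = 0.0099; interaction adjusted p = 8.1e-11), TRAF1 at 59.5 and 83.2 CPM (0.48; interaction adjusted p = 1.1e-12), THBS1 at 205 and 275 CPM (0.42; interaction adjusted p = 1.1e-14) and the clock gene ARNTL2 at 57.6 and 64.1 CPM (0.15, against -0.36 without CHIR; interaction adjusted p = 2.0e-05). AXIN2 was at 49.2 and 62.4 CPM with CHIR (0.35, adjusted p = 0.0018), with no interaction call (adjusted p = 0.89). DDIT3 (-0.96), NR1D1 (-1.21), MMP3 (-0.66), COL6A1 (0.74) and SPARC (0.39) had differences with CHIR close to those without, and their interaction p did not pass. Immediate early genes were lower in 17 of 32 with CHIR, cytokine genes lower in 9 and higher in 11 of 24, and extracellular matrix genes higher in 23 and lower in 2 of 41.

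**Figure D5:**
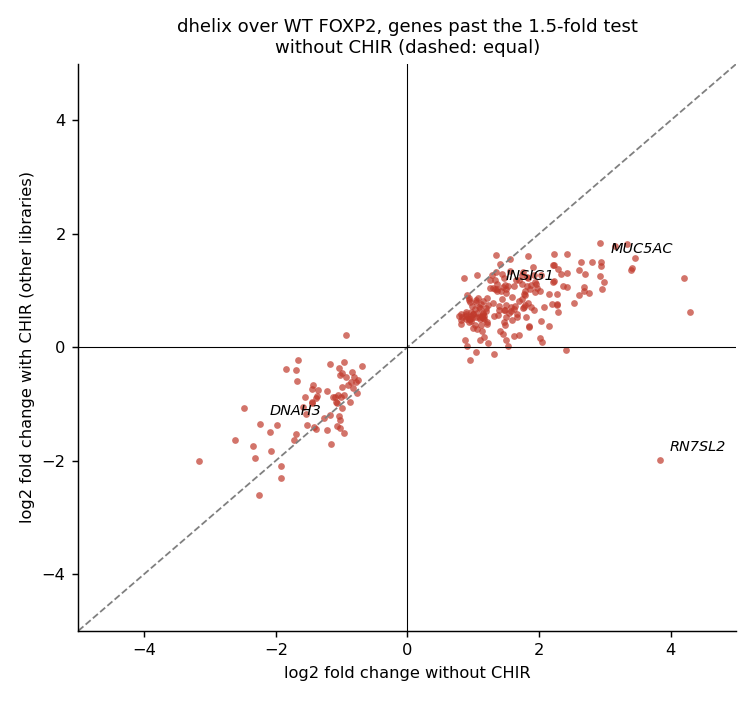
Log2 fold change of dhelix over WT FOXP2 with CHIR (y axis) against that without CHIR (x axis) for the 260 genes past the 1.5-fold test without CHIR; the 2 axes use different libraries and the dashed line marks equal values. Most points lie in the same quadrant and nearer to zero on the y axis, with medians of 1.5 and 0.77 for the higher genes.

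Promoter windows from RefSeq (GRCh38.p14, 250 bases before to 50 after a start) were matched by symbol for 127 of the 193 higher and 34 of the 67 lower genes past the 1.5-fold test, and for 12011 of all genes tested. The core forkhead sequence TGTTTA, on either strand in any window of a gene, was present for 15 higher genes (11.8%), 9 lower genes (26.5%) and 1288 of all genes (10.7%). Its longer form TGTTTAC, which contains it, was present for 7 (5.51%), 4 (11.8%) and 427 (3.56%). The TCF/LEF sequence CTTTGAT was present for 5 (3.94%), 2 (5.88%) and 265 (2.21%). Of the 35116 windows in the whole table, 12.3% held TGTTTA, 3.42% TGTTTAC and 2.62% CTTTGAT. A match describes these letters only, and binding was not measured. Many genes named above held TGTTTA in the 250 bases before a start, lower ones (TLE3, TCF7L2, NR2F1, NFATC2, FOXP1, NOS1, ALPL, TRAF1), higher ones (TLE2, CMPK2, CDK1, CD3D) and LEF1, which did not pass. Among the 14 lower genes with the largest differences, those with a window that held it were SULT1B1 and IL1RL1, and these windows are printed as examples with the match in capitals. IL1RL1 was not past the 1.5-fold test (adjusted p = 0.065). The SULT1B1 window (chr4:69760621-69760870, minus strand) has it on the opposite strand, beginning 176 bases before the start. The IL1RL1 window (chr2:102337007-102337256, plus strand), 1 of 2 for this gene, has it on the same strand, beginning 146 bases before the start.
SULT1B1: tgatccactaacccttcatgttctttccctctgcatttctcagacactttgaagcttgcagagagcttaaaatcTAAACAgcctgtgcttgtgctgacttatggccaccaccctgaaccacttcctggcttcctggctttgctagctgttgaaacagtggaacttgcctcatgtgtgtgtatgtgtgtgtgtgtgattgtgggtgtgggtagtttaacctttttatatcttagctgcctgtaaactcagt
IL1RL1: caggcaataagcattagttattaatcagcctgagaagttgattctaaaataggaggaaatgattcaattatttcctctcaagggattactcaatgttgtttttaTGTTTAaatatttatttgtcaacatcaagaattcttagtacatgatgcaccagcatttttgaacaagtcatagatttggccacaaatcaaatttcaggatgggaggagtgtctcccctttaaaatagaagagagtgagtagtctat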

How the data were processed

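The values are whole-number counts per gene that the authors deposited, 1 column per library, not normalised, from paired-end sequencing of stranded mRNA libraries, per the labels' protocols. Tools listed in the submitters' processing notes are DESeq2, Subread, featureCounts and STAR 2.6.1a, with hg19 as the build. How strand was counted and which gene models were used is not given in the sources used here. Overlapping and antisense genes are therefore uncertain. Of 57373 genes, the default filter of edgeR over the 6 groups kept 18485. Counts were scaled by trimmed means of M values and fitted with the quasi-likelihood method of edgeR 4.0.16 (R 4.3.3, robust, all 30 libraries, a mean per group), with Benjamini-Hochberg adjustment over all genes, a threshold of 0.05 and a second test against a 1.5-fold change. The standard error is the log2 fold change divided by the root of the F statistic. The biological coefficient of variation was 5.62%. GC content came from GENCODE v29.

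The comparison, the 31 gene lists and the rules were chosen with earlier results of these data known. Genes named are, by rule, LEF1, AXIN2, CTNNB1 and FOXP2, those among the 14 largest differences in each direction (at least 1 CPM over the 10 libraries, no overlap), up to 4 called members of each list, and the 3 genes per direction with the smallest interaction p; some of these are not reported here. Ribosomal protein genes were taken by symbol pattern, without pseudogenes. Alternatives were DESeq2 size factors and its Wald test (1.42.0), other filters, FOXP2 left out, the compared libraries alone, a replicate block, FOXP2 level as a covariate, each library left out and, added after seeing the data, a GC correction. On simulated data for this comparison with 18485 genes, edgeR called 48% of the 50 genes given a 1.2-fold change. For changes of 1.5-fold it called 82%, for 2-fold 96% and for 4-fold 100%. It also called 4 genes that had been given no change. Only 50 genes per size of change were altered, far fewer than the 6588 called in the real data. The adjusted threshold of the simulation was therefore stricter, and these shares are not those of the real comparison. Precision rests on 16858604 to 29466652 counts per library, and reads carry no molecular identifiers.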

Additional observations from a re-analysis of the deposited data

Results flagged for a closer look

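Single libraries stood apart from the other 4 of their group for 16 of the 182 groups of 5 values behind the genes named in the report, where chance gives about 1 in 20. Dhelix replicate 5 was high for RN7SL1 (173 CPM against at most 20.2), RN7SL2 (89.0 against at most 21.9), RN7SL3 (11.5 against at most 1.26) and ICAM1 (2.28 against at most 1.30), and low for CMPK2 (1.02 against at least 1.78). WT replicate 1, the WT library with the least FOXP2 transcript, was low for AGXT (0.861 CPM), CHRNA9 (5.59), SYP (53.5), NR1D1 (76.6), PER1 (57.0) and CLDN4 (4.49). Other dhelix libraries stood apart by small amounts: replicate 4 for NID1 (376 CPM) and CLDN4 (9.91), replicate 2 for INSIG1 (55.1) and KRT8 (202), and replicate 1 for NPC2 (106).

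For 45 of the 91 genes named in the report, the difference between the constructs changed with CHIR by the interaction test of edgeR (adjusted p under 0.05). For 43 of these it was smaller with CHIR. Genes were named largely for the size of their difference without CHIR, and some for their interaction p, so these counts are partly built in. Values below are the log2 fold change with CHIR minus that without. Among higher genes these were -1.44 for MUC5AC, -1.29 for MAL, -1.52 for LINC00659, -1.36 for NEU4, -1.05 for AGXT, -1.11 for SYK, -1.54 for C19orf77 and -1.03 for MLC1. RN7SL1 (-4.78), RN7SL2 (-5.82) and RN7SL3 (-4.90) rest on the libraries that stood apart. Smaller changes were -0.21 for NID1, -0.50 for ID4, -0.97 for CMPK2, -0.41 for SEMA3F, -0.45 for SYP, -0.45 for CENPA, -0.33 for INSIG1 and -0.37 for RPL35. Cell type markers gave -0.66 for CD3D, -0.65 for ITGAX, -0.92 for VWF, -0.59 for TIE1, -0.57 for CLDN4 and -0.46 for EPCAM.

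Among lower genes the change was positive: 0.24 for CTNNB1, 0.89 for DNAH3, 0.60 for SULT1B1, 0.34 for CD44, 0.58 for NR2F1, 0.51 for FOXP1, 0.30 for NOS1, 0.49 for EGR1, 0.18 for HSPA8, 0.37 for AXL, 0.79 for IFIT3, 0.45 for EPHA4, 0.33 for RRM2 and 0.18 for NPC1. The cytokine genes IL1A (0.89), IL8 (1.15) and TRAF1 (1.08), THBS1 (0.81) and ARNTL2 (0.51) had changes of the same sign. EPHB3, a higher gene, had a larger difference with CHIR (0.45).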

How the results depend on the processing

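Counts of genes past the threshold stayed within 1.5 times under most settings, and no called gene of the 6588 was called in the opposite direction under any of them. Exceptions were as follows. Without a filter on low counts 2274 genes were lower, and 62.9% of calls were higher rather than 47.4%. With a mean of at least 1 CPM, which tests fewer genes, 165 passed the 1.5-fold test (121 higher, 44 lower). DESeq2's Wald test gave 164 (124 and 40). With the FOXP2 level as a covariate 2079 genes were higher, 159 passed the 1.5-fold test (20 lower) and 4015 changed with CHIR. Genes changing with CHIR numbered 4291 from the 20 libraries with a FOXP2 plasmid and 4131 with the GC trend removed. The causes were not tested. Leaving out 1 library gave 5829 to 6314 calls, 216 to 261 past the 1.5-fold test and 1973 to 2406 interaction calls; the ratio of FOXP2 levels was 0.715 to 0.775 (exact permutation p of 0.0159 to 0.0238). Without dhelix replicate 5, 6164 genes were called and 260 passed the 1.5-fold test. With the replicate block 6649 genes were called, 6480 of them shared with the fit without it, and 262 passed the 1.5-fold test. Libraries of 1 number correlated at -0.0264 to 0.0748. For replicates 1 (0.0748) and 3 (0.0335) this was above the highest value with another number (0.0265 and 0.0116). For replicates 2, 4 and 5 it was not. Whether the numbers pair the libraries was not tested. Of 147 genes under the naming rule, 17 lost their call with the FOXP2 covariate, 2 with the GC trend removed and 0 with the replicate block, and 0 changed sign while called. Small differences may be missed. The 48% of 1.2-fold changes called in the simulated data does not measure that share here, because far fewer genes were altered there.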

Other observations

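Several of the genes higher past the 1.5-fold test lie beside each other. In the RefSeq gene order (GRCh38.p14, used for names only), 38 of 175 placed higher genes (21.7%) had another such gene among the 3 nearest tested genes on either side, against 900 of 15484 other tested genes (5.81%). For lower genes it was 2 of 48 (4.17%) against 283 of 15611 (1.81%). No test was made of these shares, the genes were picked after their values were seen, and overlapping genes can share reads. The mucin genes MUC5AC (2.95 without CHIR, 1.51 with) and MUC5B (3.34 and 1.82) on chromosome 11 are such neighbours, as are the tryptase genes TPSB2 (1.81 and 0.53) and TPSAB1 (2.22 and 1.45) on chromosome 16, which are near-identical copies. The fatty acid hydroxylase genes CYP4F12 (2.29 and 1.38) and CYP4F11 (1.10 and 0.69) enclose the long noncoding RNA UCA1 (0.88 and 0.12) on chromosome 19. On chromosome 2, NEU4 (2.42 and 1.07) lies by the sulfotransferase gene GAL3ST2 (2.07 and 0.71), MAL (2.80 and 1.5) by TEKT4 (1.79 and 0.92), which encodes a tektin of cilia, and the vesicle fusion genes VAMP5 (0.99 and 0.34) and VAMP8 (1.10 and 0.50) by each other.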
